A study of Solanum tuberosum with 136 samples.

Results

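The data described here are 8 RNA-seq libraries of the primary bud of Russet Burbank potato tubers (Solanum tuberosum) stored under ethylene: 4 taken at week 6 and 4 at week 3 of storage, out of a series of 34 groups of 4 libraries. They were chosen by their titles, which give tissue, time, treatment and replicate; the number after D in a title was read as the week, since the series description lists those numbers as sampling weeks. The week 6 and week 3 ethylene buds both came from tubers kept under continuous ethylene at 10 ppm, so the comparison is between a longer and a shorter exposure, with storage time moving along with it. The control buds of weeks 6 and 3 were stored without added ethylene (4 libraries each), control buds of week 0 were sampled at the start, and ethylene buds of weeks 9, 12 and 15 and ethylene flesh of weeks 6 and 3 are used for comparison (4 libraries each). One cultivar was used for all groups. The labels do not say whether replicates came from separate tubers or how many tubers entered a library, so p-values measure the spread between these libraries, which may be technical.

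A potato tuber is a swollen stem, and its buds, the eyes, hold meristems that stay dormant for a time after harvest and then sprout. Continuous ethylene in the store is used commercially to hold back sprout growth. Ethylene is a gaseous plant hormone that also takes part in ripening, ageing and stress responses, and its synthesis and perception are regulated at the level of transcription as well as of protein. The comparison addresses what changed in the buds between a first and a second sampling under ethylene, and how far the same change took place without it. The deposited tables give potato gene IDs only. None of them matched the gene table at hand (0 matches), so genes are called by their IDs and no gene function is stated. At most 2 higher and 2 lower genes are named for each comparison of gene levels.

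Library totals were 41.1 to 47.4 M counts (mega, M) in the week 6 ethylene buds and 29.5 to 50.9 M in the week 3 ethylene buds, against 37 to 49.9 M in week 6 control buds and 29 to 43.1 M in week 3 control buds. The labelled tissue was checked without markers, since IDs could not be tied to known genes. Over 24835 genes, log2(CPM + 2) of each week 6 library correlated with the mean of all other bud libraries of the series at a Pearson's r of 0.957 to 0.962 and with the mean of flesh at 0.919 to 0.921, and each week 3 library at 0.975 to 0.979 and 0.958 to 0.965. CPM are counts relative to the library's total after trimmed mean of M-values (TMM) scaling, which edgeR uses to allow for library composition. All 8 libraries were closer to bud than to flesh, and the week 6 libraries were farther from flesh than the week 3 libraries. These correlations run across genes, which share libraries and are not independent replicates.

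Most genes measured in ethylene buds differed between week 6 and week 3. Of 23503 genes tested, 12352 (52.6%) passed an adjusted p of 0.05 in edgeR's quasi-likelihood test with Benjamini-Hochberg adjustment. Relative to week 3, 7058 genes had risen by week 6 (30%) and 5294 had fallen (22.5%). Of the called genes, 3596 changed by less than 1.5-fold, 3735 by 1.5-fold to under 2-fold, and 5021 by 2-fold or more. The last count is 21.4% of the 23503 genes tested, the base of every percentage in this paragraph. Among the larger changes, higher levels prevailed. At 2-fold or more, 3354 genes were higher (14.3%) and 1667 lower (7.09%), and at 4-fold or more 1250 were higher and 329 lower. The median log2 fold change over all genes was 0.10, 0.05 with DESeq2's size factors, and the median was 0.96 among genes called higher and -0.76 among those called lower.

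The genes higher by 2-fold or more made up a large part of the bud's RNA at week 6. Their counts summed to 21.9%, 22.9%, 22.3% and 22.3% of the 4 week 6 libraries, against 9.38%, 8.07%, 9.00% and 8.73% of the 4 week 3 libraries. The genes lower by 2-fold or more held 3.698%, 3.08%, 3.22% and 3.76% at week 6, against 10.0%, 10.4%, 10.1% and 10.99% at week 3. These shares were computed over genes that the same comparison selected, so the separation of the weeks is no further evidence. In bulk tissue, fewer cells of a type and less RNA per cell cannot be told apart.

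Abundant genes were more often called than rare ones. Of the genes with a mean of 1000 CPM or more over the 8 libraries, 61% were higher and 26.3% lower at week 6, whereas of 5373 genes under 1 CPM 10.8% were higher and 3.50% lower. The middle range of 10 to 100 CPM was nearly balanced, with 37.9% higher and 36.1% lower of 8614 genes. Of the 100 most abundant genes at each week, 70 were in both lists. The 130 genes in either list that were tested included 70 higher and 44 lower at week 6, against 30% and 22.5% of all genes tested. A gene with more counts can be called for a smaller change. The part that this had in the shares of abundant and rare genes was not tested.

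A few genes were detected at one of the weeks alone. At week 6, 27 genes stood at 1 CPM or more in all 4 ethylene libraries while they had no counts in any week 3 library, and 6 genes showed the opposite. In control buds the counts were 2 and 13 genes by the same limits. No test was made of these numbers, and library totals differed between weeks as given above.

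Among genes that met the naming limits, given with the processing of the data, those with the largest increases were near absent at week 3. Soltu.DM.02G024890 had 7.28, 8.62, 7.15 and 10.1 CPM in the week 6 ethylene buds, against 0, 0, 0 and 0.193 CPM in the week 3 ethylene buds. It was higher in 4 of 4 libraries, and the fitted log2 fold change was 7.58 (SE 0.88, edgeR adjusted p = 1.64e-09). That estimate rests on 6 counts in the week 3 group, so its size is loosely fixed: with 1 library left out it ranged from 7.01 to 11.2, the highest without week 3 replicate 4, when that group has no counts. Control buds stood between these levels, at 1.24 to 4.53 CPM at week 6 and 0.325 to 1.34 CPM at week 3. Soltu.DM.07G022000 had 22, 30.4, 30.2 and 39.9 CPM at week 6, against 0, 0, 0 and 1.09 CPM at week 3, with a log2 fold change of 7.04 (SE 1.20, edgeR adjusted p = 4.16e-06). This too rests on 1 library at week 3: with 1 library left out the value ranged from 6.45 to 13.1, the highest without that library, when the week 3 group has no counts. In control buds its libraries overlapped widely between week 6 (0.28 to 11.4 CPM) and week 3 (0.713 to 14.1 CPM).

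Among genes that met the naming limits, those with the largest decreases were called lower in both arms. Soltu.DM.08G009790 had 0.624, 0.271, 0 and 0.542 CPM in the week 6 ethylene buds, against 6.62, 8.78, 6.17 and 8.27 CPM at week 3. Its log2 fold change was -4.34 (SE 0.76, edgeR adjusted p = 8.67e-06). Soltu.DM.08G023380 had 2.70, 0, 1.43 and 2.21 CPM at week 6, against 22.9, 26.4, 23.8 and 29.8 CPM at week 3, with a log2 fold change of -4.01 (SE 0.80, edgeR adjusted p = 4.51e-05). Both also fell in control buds, by 3.20 and 3.23 on the log2 scale (edgeR adjusted p = 0.000201 and 0.000396). The single library at 0 beside libraries above 1 CPM recurs in several genes below. The sources at hand do not state how reads shared by neighbouring or near-identical genes were assigned, and whether such zeros are an absence of reads was not tested.

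**Figure D1:**
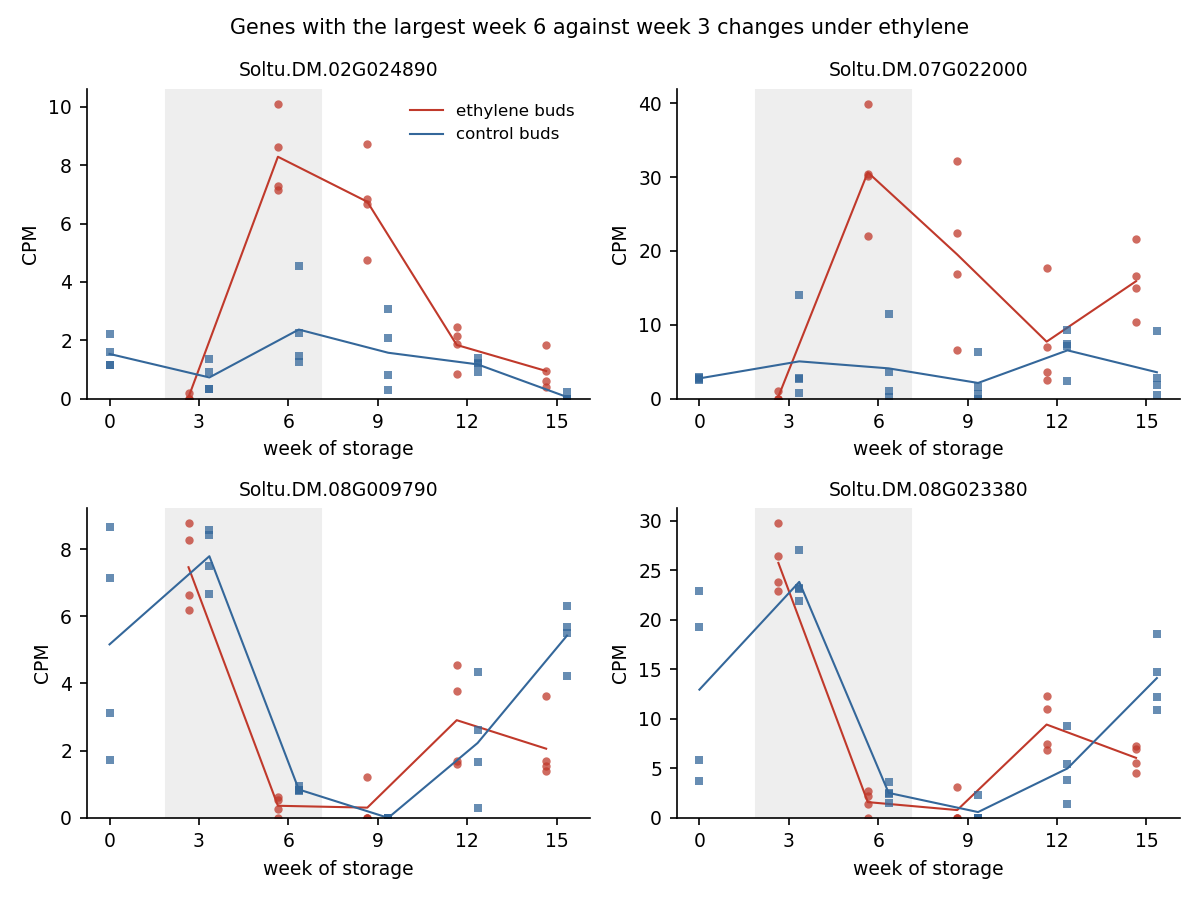
CPM (y axis) by week of storage (x axis) for genes with large changes between week 3 and week 6 under ethylene. They are the 2 with the largest increases and the 2 with the largest decreases among genes that met the naming limits. Points are libraries (circles, ethylene buds; squares, control buds; week 0 is control), lines join group means of 4 libraries and grey marks weeks 3 and 6. The 2 genes in the upper row peak at week 6 in ethylene buds, and the 2 in the lower row drop at weeks 6 and 9 in both arms.

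The control buds made much of the same change over the same weeks. In control buds 12509 of 23503 genes were called (53.2%), 7088 of them higher (30.2%) and 5421 lower (23.1%) in week 6 buds. The ethylene and control comparisons share no library. Of the genes higher at week 6 under ethylene, 5184 were also higher in control buds, which is 73.4% of the ethylene list and 73.1% of the control list. Of the genes lower under ethylene, 4253 were also lower in control buds, 80.3% of the ethylene list and 78.5% of the control list. Opposite calls were few: 1.80% of the genes higher under ethylene were lower in control, and 60 genes were lower under ethylene and higher in control.

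Among the named genes called in the same direction in both arms, 3 had changes whose difference between arms was not called (edgeR adjusted p = 0.867 for Soltu.DM.11G011180, 0.911 for Soltu.DM.09G001320 and 0.797 for Soltu.DM.02G015910). For the fourth, Soltu.DM.12G029280, the difference was called (edgeR adjusted p = 0.00897). Soltu.DM.11G011180 had 18.0, 20.9, 11.1 and 10.6 CPM in week 6 ethylene buds and 1.57, 1.86, 0.982 and 1.09 CPM in week 3 ethylene buds, and 7.84 to 20.1 CPM against 0.758 to 1.51 CPM in control buds. It stood at 22.3 to 51.2 CPM in ethylene buds and 48.8 to 62.1 CPM in control buds at week 15. Soltu.DM.09G001320 was 2.96 higher on the log2 scale under ethylene (SE 0.25) and 3.12 higher in control (SE 0.25). Its level was back at 3.16 to 3.8 CPM in ethylene buds at week 15, against 10.2 to 17.8 CPM at week 6. Among the decreases, Soltu.DM.02G015910 fell by 3.84 (SE 0.39) on the log2 scale under ethylene and by 4.21 (SE 0.40) in control. Soltu.DM.12G029280 had 2.54, 0, 0 and 0 CPM in the week 6 ethylene buds, against 7.02 to 10.5 CPM at week 3. In control buds it had no counts in any week 6 library and 7.71 to 9.38 CPM at week 3, so that the fitted control change and the difference between arms have no fixed size.

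Among genes that met the naming limits, those with the largest control changes also changed under ethylene. Soltu.DM.01G041860 and Soltu.DM.01G041910 were 4.74 (SE 0.57) and 4.36 (SE 0.61) higher on the log2 scale at week 6 in control buds. Under ethylene they were 2.43 (SE 0.45) and 2.70 (SE 0.49) higher, with edgeR adjusted p = 1.73e-05 and 1.30e-05. Both were more abundant under ethylene at either week: Soltu.DM.01G041860 had 184.6, 55.3, 33.8 and 61.2 CPM at week 6 and 28.9, 8.42, 5.98 and 19 CPM at week 3 in ethylene buds, against 13.5 to 28.4 CPM and 0.535 to 1.63 CPM in control buds. Soltu.DM.02G029690 fell by 2.34 (SE 0.77) on the log2 scale under ethylene and by 4.78 (SE 0.92) in control, where the week 6 estimate rests on 1.80 CPM in 1 library and no counts in the other 3.

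**Figure D2:**
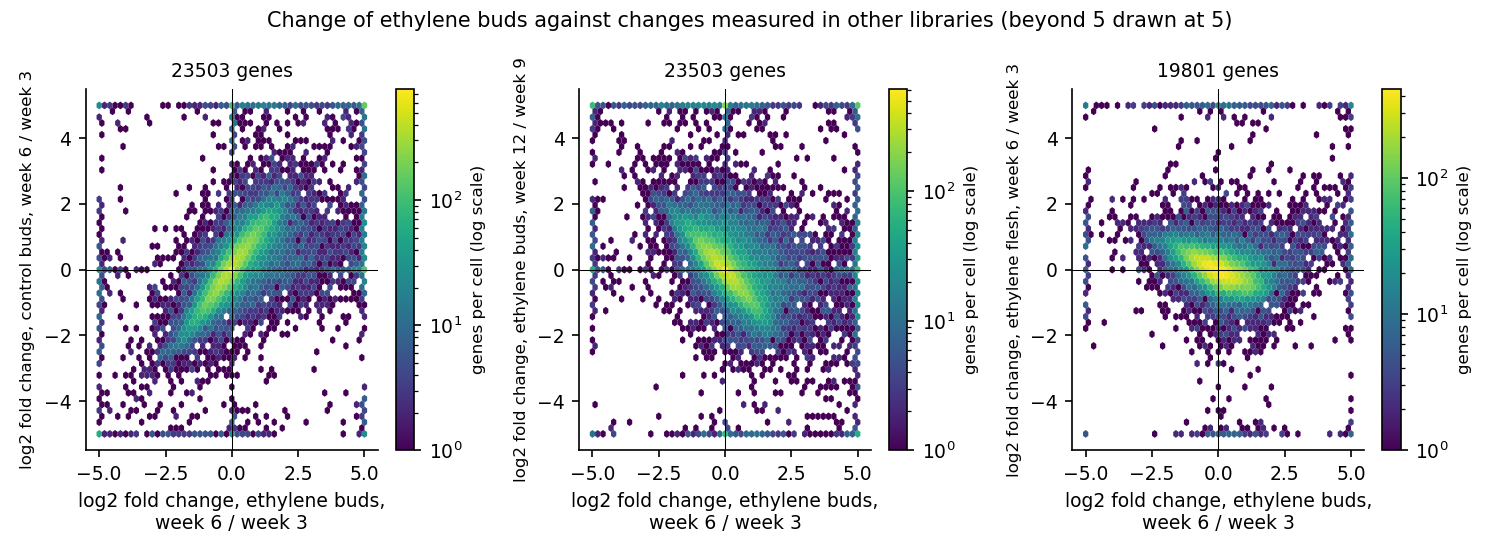
Log2 fold change per gene in ethylene buds (x axis, week 6 over week 3) against the change in control buds over the same weeks (left), in ethylene buds from week 9 to week 12 (middle) and in ethylene flesh from week 3 to week 6 (right). Colour gives genes per cell on a log scale and values beyond 5 are drawn at 5; the cloud runs along the rising diagonal at left and along the falling diagonal in the other 2 panels, none of which shares a library with the x axis.

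To place the ethylene buds on the control's own change, each library was projected onto the line between the control means of weeks 3 (position 0) and 6 (position 1), over the 12509 genes called in control. Week 6 ethylene buds stood at 0.948, 1.00, 0.978 and 0.844, and week 3 ethylene buds at 0.182, 0.0936, 0.132 and 0.0857. The groups did not overlap. The means were 0.943 ± 0.069 at week 6 and 0.123 ± 0.044 at week 3 (SD, n = 4 each), a difference of 0.819. The two-sided exact permutation p was 0.0286, the smallest that 4 against 4 allows, and 0.05 after Benjamini-Hochberg adjustment over 7 tests, which is at the threshold and not under it. The week 6 ethylene buds lay near the week 6 control buds (0.939 to 1.07), and the week 3 ethylene buds lay above all week 3 control buds (-0.0439 to 0.0237). Control buds of weeks 3 and 6 set the axis, so their own positions centre on its ends. Week 0 control buds, which did not set it, stood at -0.0209 to 0.164 and overlapped the week 3 ethylene buds. The gap at week 3 is therefore not read as an effect of ethylene.

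On the line of storage as a whole the week 6 ethylene buds lay lower than the week 3 ethylene buds. Control buds advanced between the means of weeks 0 and 18 over 2977 genes at least 2-fold apart, standing at 0.344 ± 0.056, 0.495 ± 0.037, 0.564 ± 0.044, 0.679 ± 0.059 and 0.961 ± 0.008 in weeks 3, 6, 9, 12 and 15 (SD, n = 4 each). Week 6 ethylene buds stood at 0.374, 0.35, 0.309 and 0.226, against 0.450, 0.446, 0.430 and 0.420 at week 3. Every week 6 library was below every week 3 library, a difference of -0.12 between the means. The exact permutation p was again 0.0286 and 0.05 after adjustment. In weeks 9, 12 and 15 the ethylene buds stood at 0.417 ± 0.068, 0.396 ± 0.029 and 0.517 ± 0.033 (SD, n = 4 each).

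**Figure D3:**
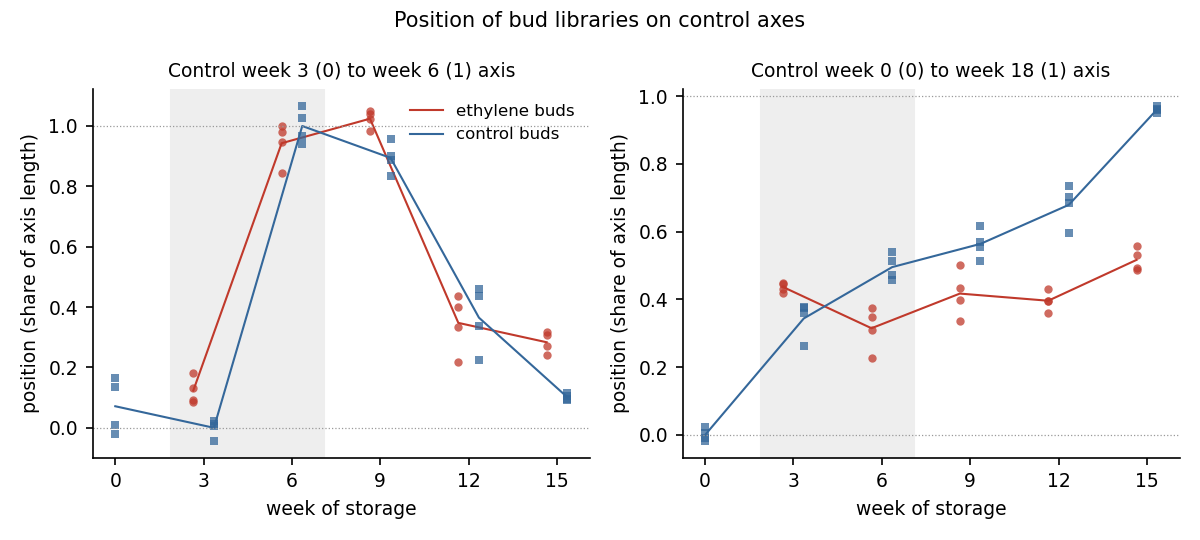
Position of bud libraries (y axis, share of the length of the control axis) by week of storage (x axis), on the control axis of weeks 3 to 6 (left) and of weeks 0 to 18 (right). Circles are ethylene and squares control libraries, lines join means of 4 libraries, dotted lines mark the ends of the axis, which control means set, and grey marks weeks 3 and 6. At left the ethylene libraries lie at 0.844 to 1.00 at week 6 and at 0.0857 to 0.182 at week 3, and at right they lie below the control at week 6.

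Weeks 6 and 9 stood apart from the other weeks in both arms. In a principal component analysis of the 44 bud libraries of weeks 0 to 15, the first component held 42.5% of the variance. Week 6 ethylene buds lay at 50.1 to 64.3 and week 3 ethylene buds at -30.4 to -23.6 on it. In weeks 9, 12 and 15 ethylene buds were at 62.6 to 68.1, -33.7 to -8.7 and -28.3 to -12, and control buds at 38.9 to 59.3 at week 6 and 43 to 50.6 at week 9. The labels name no extraction, library or sequencing batch. A feature shared by all libraries of a week and the week itself therefore cannot be told apart.

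The median gene of each list followed that course. For the 3354 genes higher by 2-fold or more, the median log2 difference from week 0 in ethylene buds was -0.24, 0.67, 0.63, 0.09 and 0.09 in weeks 3, 6, 9, 12 and 15. For the 1667 genes lower by 2-fold or more it was 0.15, -0.92, -1.06, -0.17 and -0.15 at the same weeks. Control buds gave -0.19, 0.35, 0.42, 0.05 and -0.20 for the first list and 0.21, -0.87, -0.87, -0.22 and 0.15 for the second. The lists were selected on the ethylene libraries of weeks 3 and 6, so those weeks are a description only. The mean of week 0 lay between those of weeks 6 and 3 for 54.4% of the higher genes and 70.1% of the lower ones. Lists chosen for a wide gap between those weeks favour this position, so nothing is read from it.

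Many of these genes changed in the opposite direction between weeks 9 and 12. In ethylene buds 11642 of 23503 genes were called between week 12 and week 9 (49.5%), 6365 of them higher (27.1%) and 5277 lower (22.5%) at the later week. This comparison shares no library with that of weeks 6 and 3. Of the 7058 genes higher at week 6, 4080 were lower at week 12 than at week 9, which is 57.8% of the first list and 77.3% of the second. Of the 5294 genes lower at week 6, 3942 were higher at week 12, 74.5% and 61.9% of the lists. In the same direction, 456 and 93 genes were called again. Between weeks 15 and 12, 3298 genes were called (14%), 1515 higher (6.45%) and 1783 lower (7.59%).

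Some of the named genes had moved the other way before. Soltu.DM.08G023380, which had fallen at week 6, was at 11, 7.48, 6.89 and 12.3 CPM at week 12 against 0, 3.13, 0 and 0 CPM at week 9. Soltu.DM.08G021330, at 47.4 to 219 CPM at week 12 and 7.47 to 12 CPM at week 9, had not been called between weeks 6 and 3 (10.7 to 36.4 CPM against 12.8 to 15.8 CPM). Soltu.DM.02G026480 was at 2.09, 0, 0.253 and 0 CPM at week 12, against 32.6 to 60.8 CPM at week 9. It had stood at 19.9 to 66.7 CPM at week 6 and at 0 to 1.71 CPM at week 3. Soltu.DM.03G016720 fell by 5.23 (SE 1.16) on the log2 scale between the same weeks. For week 15 against week 12 the named genes are Soltu.DM.03G016730 (8.88 to 25.7 CPM against 0.273 to 5.63 CPM) and Soltu.DM.07G026500 (10.4 to 22.5 CPM against 1.37 to 6.93 CPM), both higher, and Soltu.DM.02G025760 (0.74 to 2.29 CPM against 12.8 to 60 CPM) and Soltu.DM.05G022690 (0.524 to 2.11 CPM against 10.5 to 40.9 CPM), both lower. The calls of the 2 higher ones were lost when some single libraries were left out.

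The change between weeks 6 and 3 differed between the arms for a smaller set of genes. In the test of that difference, an interaction of week and arm over the 16 libraries in question within the fit of all 44, 3000 of 23503 genes were called (12.8%). For 1642 genes (6.99%) the change was more positive under ethylene and for 1358 (5.78%) more negative. The second count was 730 with all 68 bud libraries in the fit, and the share more positive was then 63% in place of 54.7%. Of the 3000 genes called in the main fit, 1092 differed by 2-fold or more (4.65% of the genes tested). Of the 5021 genes with a 2-fold or larger ethylene change, 946 differed from the control in the direction of the ethylene change, 880 of them higher at week 6 and 66 lower. The comparison shares libraries with those above and only sorts their genes. An effect called in one arm alone is not by that a difference: among the 1747 genes higher under ethylene and not called in control, 768 had a called difference and 979 did not. A further 529 genes were higher in both arms with a smaller rise under ethylene.

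The largest differences in favour of ethylene were gathered in a set chosen after the data were seen. This set of 561 genes was called for the difference and was at least 2-fold higher at week 6 under ethylene with a change at least 4-fold above the control's. Their summed level was 25534, 29028, 27492 and 36661 CPM in the week 6 ethylene buds, against 2400, 2703, 4111 and 5281 CPM in the week 3 ethylene buds. In control buds it was 4374, 6462, 10742 and 18870 CPM at week 6 and 6660, 5708, 8301 and 22328 CPM at week 3. The median log2 fold change of the set was 3.73 under ethylene and 0.04 in control, beside 0.10 and 0.11 over all genes tested. These values were used to choose the set and are a description. At week 0 the sum was 16056 to 19771 CPM. It lies between the sums of the ethylene weeks, which a set chosen as high at week 6 and low at week 3 favours, so nothing is read from it. The control library numbered 4 was the highest of its group at each of weeks 3, 6, 9, 12 and 15, and without it at weeks 3, 6 and 9 the set counted 490 genes. The ethylene library numbered 4 was the highest of its group at weeks 3, 6 and 9, and not at weeks 12 and 15. Of the 561 genes, 154 (27.5%) were lower and 61 (10.9%) higher at week 12 than at week 9 under ethylene, against 22.5% and 27.1% of all genes. The lower share was thus near that of all genes, and the higher share was below it. Of all 7058 genes higher at week 6 under ethylene, 57.8% were lower and 6.46% higher at week 12. In weeks 9, 12 and 15 the sum of the 561 genes in ethylene buds was 15206 to 30349, 11315 to 23136 and 16032 to 22368 CPM.

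**Figure D4:**
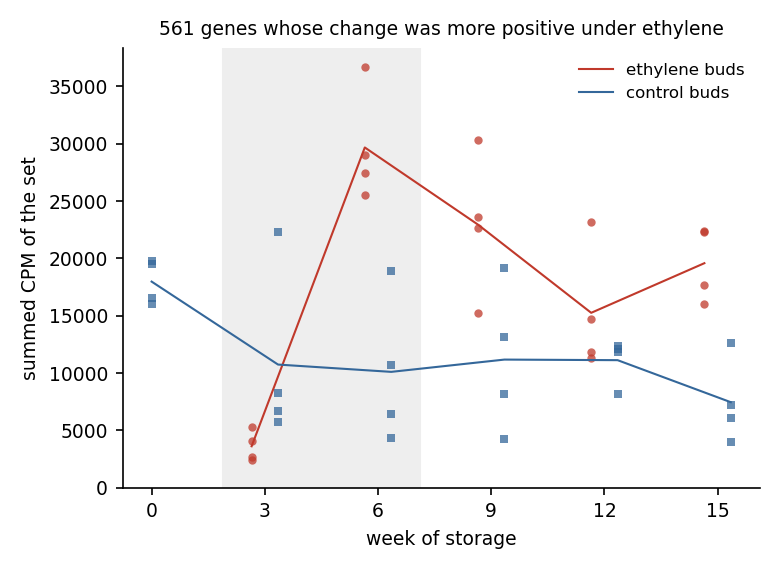
Summed CPM (y axis) of the 561 genes whose change between weeks 3 and 6 was at least 4-fold more positive under ethylene, by week of storage (x axis). Circles are ethylene and squares control libraries, lines join means of 4 libraries and grey marks weeks 3 and 6. The week 3 ethylene libraries lie at 2400 to 5281 CPM, a range that single control libraries of weeks 6, 9 and 15 also reach, and the week 6 ethylene libraries all lie above every control library.

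The named genes of this difference show both directions. Among genes that met the naming limits and were higher at week 6 under ethylene, Soltu.DM.07G022000, described above, and Soltu.DM.07G022400 had the largest differences, of 7.34 (SE 1.48) and 6.97 (SE 1.41) on the log2 scale, with edgeR adjusted p = 0.000703 and 0.000713. With 1 library left out these differences ranged from 6.02 to 13.5 and from 5.69 to 8.71, and the 13.5 came without week 3 ethylene replicate 4. Soltu.DM.07G022400 had 29.8, 52.3, 41.8 and 65 CPM in week 6 ethylene buds, against 0, 0.196, 0.505 and 1.45 CPM in week 3 ethylene buds. Its control levels overlapped between weeks 6 (0.58 to 15.1 CPM) and 3 (1.23 to 17.5 CPM). On the negative side the differences were smaller. Soltu.DM.01G050740 had 26.9, 21.3, 28.7 and 18.8 CPM at week 6 and 87.7, 109.3, 107.5 and 109.5 CPM at week 3 under ethylene, against 32.2 to 50.6 CPM and 46.7 to 57.7 CPM in control. The difference was -1.75 (SE 0.27, edgeR adjusted p = 3.77e-05), with ethylene above control at week 3 and below it at week 6. A set of 37 genes was at least 2-fold lower at week 6 under ethylene with a change at least 2-fold below the control's. Its sum was 209 to 341 CPM in week 6 and 747 to 970 CPM in week 3 ethylene buds, against 316 to 404 CPM in week 6 and 462 to 539 CPM in week 3 control buds.

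Genes called in opposite directions in the arms included 2 that had been high at week 0. Soltu.DM.03G020780 had 32.6, 55, 85.9 and 223 CPM in week 6 ethylene buds, against 4.29, 3.35, 4.94 and 8.24 CPM in week 3 ethylene buds, a log2 fold change of 4.27 (SE 1.01, edgeR adjusted p = 0.000434). In control buds it was at 1.26 to 24.1 CPM at week 6 and 5.15 to 116.7 CPM at week 3, a log2 fold change of -2.33 (SE 0.93) with overlapping groups. It had stood at 168 to 312 CPM in week 0 buds. Soltu.DM.06G013150 was likewise at 333 to 417 CPM at week 0. It had 51.4, 69.6, 89.2 and 189 CPM in week 6 ethylene buds and 28.2, 25, 22.6 and 31.3 CPM in week 3 ethylene buds, against 7.21 to 24.8 CPM and 29.3 to 90.7 CPM in control. For both genes the highest library of the week 6 ethylene group was replicate 4, as it was in the control groups of weeks 6 and 3. In the other direction, Soltu.DM.07G014630 was at 3.51 to 4.48 CPM in week 6 and 5.76 to 7.60 CPM in week 3 ethylene buds, against 12.2 to 14 CPM and 6.79 to 9.31 CPM in control buds. Soltu.DM.12G029080 was at 3.44 to 5.34 CPM and 5.47 to 6.95 CPM under ethylene, against 4.76 to 6.87 CPM and 3.02 to 5.16 CPM in control, where the weeks overlapped. Its ethylene call, and that of Soltu.DM.07G014630, was lost when single ethylene libraries were left out.

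Many genes were called in opposite directions in the flesh and the bud of ethylene-treated tubers over the same weeks. In flesh 5573 of 19918 genes were called between week 6 and week 3 (28%), 2752 higher (13.8%) and 2821 lower (14.2%), and 361 (1.81%) changed by 2-fold or more. Over the 19801 genes tested in both tissues, 1865 were higher in bud and lower in flesh at week 6. They are 29.8% of the bud's higher genes and 66.1% of the flesh's lower genes. A further 2010 were lower in bud and higher in flesh, 38.7% of the bud's lower genes and 73.1% of the flesh's higher genes. Same-direction calls were 316 higher in both and 202 lower in both. No test of the difference between tissues was made, and the tissues were scaled and fitted separately.

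Of the named flesh genes, 2 rose in both tissues. Soltu.DM.03G020780 had 9.59, 10.4, 16.9 and 39.8 CPM in week 6 and 2.99, 0, 2.07 and 2.14 CPM in week 3 ethylene flesh, a log2 fold change of 3.31 (SE 0.71, edgeR adjusted p = 0.0013). Soltu.DM.02G030150 was at 20.1 to 47.1 CPM in week 6 and 2.36 to 6.31 CPM in week 3 ethylene flesh, and at 176 to 339 CPM and 9.76 to 39.3 CPM in ethylene buds of those weeks. In the other direction Soltu.DM.04G007800 was lower in week 6 flesh, at 5.87 to 7.34 CPM against 14.6 to 17.8 CPM at week 3. In ethylene buds it was at 17.6 to 21.4 CPM at week 6 and 4.12 to 5.33 CPM at week 3. Soltu.DM.07G005390 was at 0.799 to 2.98 CPM in week 6 and 6.57 to 14.2 CPM in week 3 flesh.

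Most of a list of genes high in bud relative to flesh at week 0 were higher at week 6. Of 434 genes at 10 CPM or more in every week 0 control bud library and at least 4-fold above every week 0 flesh library, 299 (68.9%) were higher at week 6 under ethylene and 33 (7.60%) lower, against 30% and 22.5% of all genes. In control buds 120 of the 434 were higher and 88 lower, near the 30.2% and 23.1% of all genes called there. Their summed level was 21791 to 27728 CPM in week 6 and 11918 to 15010 CPM in week 3 ethylene buds, against 13804 to 19118 CPM and 13777 to 23179 CPM in control buds of those weeks and 29559 to 33290 CPM at week 0. The 22 genes of the reverse list, high in week 0 flesh, were higher for 10 and lower for none, with sums of 351 to 482 CPM in week 6 and 193 to 246 CPM in week 3 ethylene buds. In control buds 11 were higher and 1 lower, with sums of 323 to 418 CPM at week 6 and 177 to 235 CPM at week 3. In flesh itself their sum was 716 to 847 CPM at week 6 and 1065 to 1310 CPM at week 3 under ethylene. Both lists were chosen after the data were seen. The part that the proportion of tissues in a sample had in these values was not tested.

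Called genes were spread over all 12 chromosomes, as read from the IDs. The share higher at week 6 was 28.3% to 32% and the share lower 20.9% to 23.9% on each, near the 30% and 22.5% of all genes. Some neighbours moved together. Among genes tested in ID order, 27 runs of 5 or more genes in a row were higher by 2-fold or more, with 176 genes in them, and 4 runs with 22 genes were lower. Neighbours can share reads, and no test of these runs was made. The longest runs had 14 genes. Runs were picked by their ethylene change, which favours a difference between arms, and 12.8% of all genes tested had a called difference. The first lay on chromosome 8 (Soltu.DM.08G017870 to Soltu.DM.08G018030), with a median log2 fold change of 4.70 under ethylene and 0.09 in control, and 11 of its 14 genes differed between arms. Its median level was 0.342 CPM in week 3 ethylene buds, so the size of the ethylene change is loosely fixed. The second lay on chromosome 9 (Soltu.DM.09G001260 to Soltu.DM.09G001410), with medians of 2.76 and 2.32, and 1 of its genes differed between arms. A run of 10 genes on chromosome 4 had a median level of 103.6 CPM in week 6 and 26.6 CPM in week 3 ethylene buds, against 72.4 and 30.1 CPM in control buds of those weeks.

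The use of transcripts within genes changed in few cases. Of 5395 genes with 2 or more transcripts past the filter, 26 (0.482%) were called in edgeR's test of transcript usage (Simes adjusted p under 0.05). The count was 15 to 33 with 1 library left out, the lowest without week 3 replicate 4, and 17 without replicate 1 or replicate 2 of that week. It was 50 with only the 8 libraries in the fit. In 22 of them the share of the leading transcript, the one with the highest mean share over the 8 libraries, moved by 10 percentage points or more, upward at week 6 in 17 and downward in 5. Of these 22 genes 15 were lower, 2 higher and 5 not called as whole genes. Of all genes in the gene test 22.5% were lower and 30% higher, a base that includes many genes of low level. The part that the lower counts of 15 of these genes had in the calls was not tested.

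In each of the 4 genes named, a transcript counted at week 3 had no counts at week 6 under ethylene. The leading transcript of Soltu.DM.02G023890 held 100% of the gene's counts in all 4 week 6 ethylene libraries, against 17.0%, 34.9%, 36.5% and 30.4% at week 3 (edgeR adjusted p = 0.00203). The gene had 677 to 1456 counts per library at week 6 and 5419 to 8035 at week 3. In control buds the share was 17.9% in 1 week 6 library and 100% in the other 3, against 15.9% to 25.7% at week 3. Soltu.DM.11G018160 went the same way, with 100% at week 6 in all 4 ethylene libraries and 55.7% to 83.3% at week 3, and in control buds with 100% in all 4 week 6 libraries and 55.5% to 80.6% at week 3. Its ethylene counts were 1282 to 2509 at week 6 and 8176 to 10629 at week 3. For Soltu.DM.07G013370 the share was 99.4% to 100% at week 6 and 42.2% to 62.3% at week 3 under ethylene, against 45.5% to 99.1% and 49.6% to 95.9% in control buds, where the weeks overlapped. Soltu.DM.05G017300 was not called as a gene. Its leading transcript held 59.9%, 70.3%, 56.7% and 77.8% at week 6 and 55.8%, 52.6%, 58.3% and 57.4% at week 3, while another transcript with 27% ± 9.3 at week 3 (SD, n = 4) had no counts at week 6. In control buds the leading transcript held 34% to 64.6% at week 6 and 40.4% to 67.8% at week 3.

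**Figure D5:**
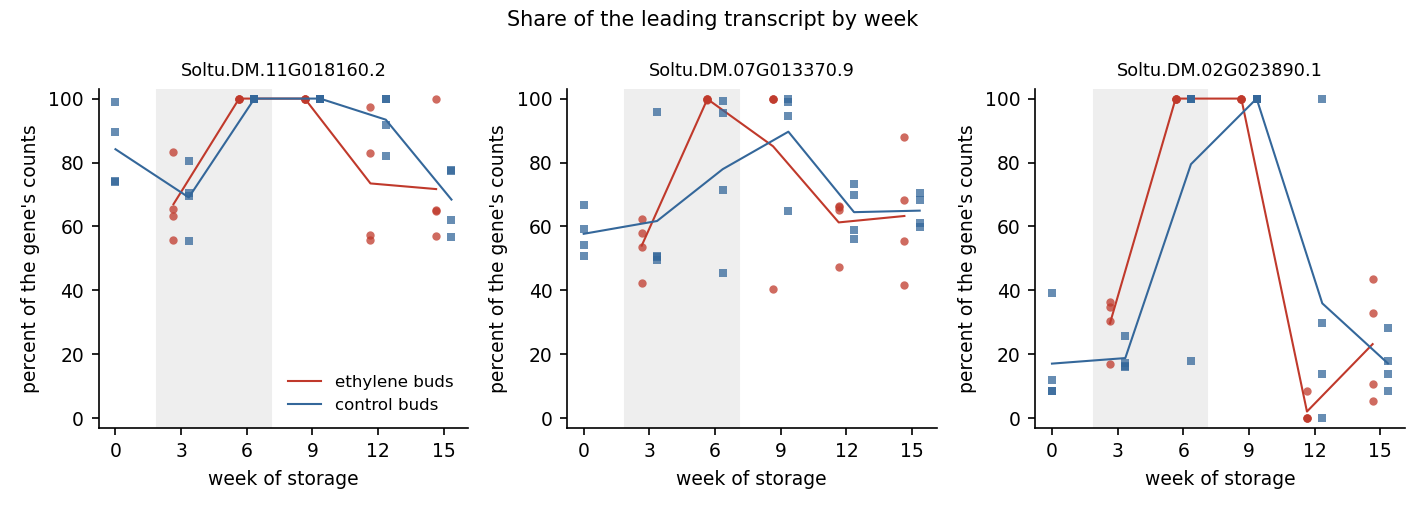
Percent of a gene's counts in its leading transcript (y axis) by week of storage (x axis) for 3 genes called for transcript usage. Circles are ethylene and squares control libraries, lines join means of 4 libraries and grey marks weeks 3 and 6. Shares are at or close to 100% in all week 6 ethylene libraries and at 17.0% to 83.3% at week 3.

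Measures of the libraries moved with the comparison in part. The 100 most abundant genes held 23.9%, 24.6%, 24.4% and 23.6% of the counts at week 6, against 21.5%, 22.1%, 21.7% and 21% at week 3, and the 10 most abundant 6.28% to 6.63% against 5.67% to 6.16%. Neither pair of groups overlapped (exact permutation p = 0.0286, adjusted 0.05). Genes at 1 CPM or more numbered 17829 to 18031 at week 6 and 17524 to 17850 at week 3 (exact permutation p = 0.0571, adjusted 0.08). Library totals differed by 6.57 M (exact permutation p = 0.229, adjusted 0.267). The row without a gene ID held 1.95% ± 0.05 at week 6 and 1.94% ± 0.06 at week 3 (SD, n = 4 each; exact permutation p = 0.8). The part of these measures in the changes of single genes was not tested.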

How the data were processed

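The authors deposited tables of raw counts per gene and per transcript. Their values are whole numbers with a different total in each library and no normalization. Per the submitters' processing notes, reads went through Trimmomatic, HISAT2, SAMtools and StringTie, with no version given. Neither these notes nor the labels state the genome build, the strand setting or the handling of shared reads. Per the labels' protocols, RNA was purified with a Qiagen RNeasy Plant Mini kit.

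Of 32878 genes, those kept by edgeR's filterByExpr with a count of at least 10 and a total of at least 15 were tested with its quasi-likelihood test (edgeR 4.0.16, R 4.3.3, TMM scaling) in 1 fit of 44 bud libraries (week 0 and both arms of weeks 3 to 15, 33 residual degrees of freedom). A fit of 20 flesh libraries (week 0 and both arms of weeks 3 and 6, 15 degrees of freedom) was separate. Buds after the return to air stayed out because 1 such library was known to stand apart from its group, and entered an alternative with all 68 bud libraries. CPM were computed here from the deposited counts. The 1 row without a gene ID, 1.87% to 2.00% of the counts of the 8 libraries, was left out of totals and tests. Depth was 16632791 to 50914087 counts in the 136 libraries, which sets counting error only. Transcript usage was tested with edgeR's diffSpliceDGE. Single measures were compared by two-sided exact permutation tests, with Benjamini-Hochberg adjustment over 7. Standard errors were derived from the F statistic. The tests were also run on simulated counts with a small set of altered genes and no other group differences. Their spread was set by mean level alone. That setting is unlike these data, so it gives no error rate for them.

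Genes named are, per comparison, at most 2 higher and 2 lower with the largest fold change among those past the threshold, with non-overlapping groups, 5 CPM or more in every library of the higher group and a count in at least 1 library of the lower. Members and lists were chosen with earlier results of these data known. Lists of hormone, dormancy, cell cycle, cell wall, storage and defence genes could not be formed, since 0 IDs matched the gene table. Replicate numbers did not pair the libraries by the criterion used (a correlation over 0.1 in every pair). Same-numbered control buds of weeks 6 and 3 still correlated at 0.09 to 0.60 in their deviations from the group mean. Same-numbered ethylene and control buds of week 3 correlated at -0.10 to 0.33. Alternatives tried were DESeq2 size factors, DESeq2's Wald test (version 1.42.0), no filter, a replicate block, other sets of libraries, another pseudocount and each library left out.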

Additional observations from a re-analysis of the deposited data

Results flagged for a closer look

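A library was looked at again where it lay far from the other 3 of its group. For normally distributed values chance alone does this in about 1 of 20 groups. It was so in 16 of the 90 groups looked at. A group with 3 libraries at 0 and 1 above 0 always meets the limit, and the choice of genes by fold change favours such groups. The 16 can therefore not be set against that rate. In ethylene buds of week 6, replicate 1 stood apart for Soltu.DM.12G029280 (2.54 CPM, others 0) and for the summed level of the 37 genes that fell further under ethylene (341 CPM, others 209 to 228). In the same group, replicate 4 stood apart for the share of counts in the 10 most abundant genes (6.28%, others 6.59% to 6.63%). In ethylene buds of week 3, replicate 4 held the only counts of Soltu.DM.02G024890 (0.193 CPM) and of Soltu.DM.07G022000 (1.09 CPM), and replicate 1 was low for Soltu.DM.01G050740 (87.7 CPM, others 107.5 to 109.5 CPM). In control buds of week 3, replicate 4 was high for Soltu.DM.07G022000 (14.1 CPM, others 0.713 to 2.73) and for the summed level of the 561 genes (22328 CPM, others 5708 to 8301), and replicate 1 for Soltu.DM.01G041860 (1.63 CPM, others 0.535 to 0.665). In control buds of week 6, replicate 3 alone had counts of Soltu.DM.02G029690 (1.80 CPM).

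Outside these weeks, Soltu.DM.08G023380 was counted in replicate 2 alone of the week 9 ethylene buds (3.13 CPM). In week 12 ethylene buds replicate 1 was high for Soltu.DM.02G026480 (2.09 CPM, others 0 to 0.253), Soltu.DM.03G016720 (0.995 CPM, others 0) and Soltu.DM.07G026500 (6.93 CPM, others 1.37 to 1.99). In ethylene flesh replicate 4 was high for Soltu.DM.02G030150 at week 6 (47.1 CPM, others 20.1 to 22.9) and at week 3 (6.31 CPM, others 2.36 to 2.80).

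The change between weeks 6 and 3 differed between ethylene and control buds for 3000 genes in edgeR's test of that difference. Among the genes named for this difference or for opposite calls in the arms the difference, ethylene minus control on the log2 scale, was 7.34 for Soltu.DM.07G022000, 6.97 for Soltu.DM.07G022400, 6.60 for Soltu.DM.03G020780 and 3.81 for Soltu.DM.06G013150. It was -1.75 for Soltu.DM.01G050740, -1.42 for Soltu.DM.07G014630 and -0.91 for Soltu.DM.12G029080. Of the genes named for other comparisons, it was called also for Soltu.DM.02G024890 (5.88), Soltu.DM.02G030150 (4.74), Soltu.DM.03G016720 (4.65), Soltu.DM.02G026480 (4.56), Soltu.DM.07G026500 (4.48), Soltu.DM.03G016730 (4.33), Soltu.DM.05G022690 (1.38), Soltu.DM.04G007800 (1.14) and Soltu.DM.01G041860 (-2.31). It was called for Soltu.DM.12G029280 too, with no fixed size because no week 6 control library had counts. What these differences come from was not tested.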

How the results depend on the processing

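Under other settings, 4 counts of genes moved by over 1.5 times. With 1 library left out, 202 of 208 counts and measures stayed within the limits used. For the single measures those limits could show a change of sign only, since none had an adjusted p under 0.05 with all libraries. The ethylene comparison of weeks 6 and 3 gave 6168 genes higher and 6117 lower with only the groups compared in the fit, 6758 and 5791 with DESeq2's Wald test, and 5814 to 6842 higher and 4978 to 5710 lower with 1 library left out. Genes with a more negative change under ethylene than in control numbered 730 with all 68 bud libraries in the fit. Between weeks 15 and 12, 668 genes were higher and 1056 lower with only the groups compared. Transcript usage gave 50 genes with only the 8 libraries compared, and 15 to 33 with 1 library left out, the lowest without week 3 replicate 4. It gave 17 genes without week 3 replicate 1 and 17 without replicate 2. The difference in the share of the row without a gene ID ranged from -0.0105 to 0.0348 percentage points and so changed sign. The values with changed sign were -0.0033, -0.0105 and -0.00084. The causes of these shifts were not tested.

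With a replicate block, 7018 genes were higher and 5335 lower; same-numbered ethylene libraries of weeks 6 and 3 correlated at -0.03 to 0.17 in their deviations, and 3 of 4 correlated best with their own number. Without the control libraries numbered 4, an alternative chosen after seeing the data, 1390 genes had a more positive and 1044 a more negative change under ethylene. Of 320 values of single genes with 1 library left out, 308 kept their call, 12 lost it and none changed sign. With 3 libraries against 4 an exact permutation test cannot go below 0.0571, so the tests of single measures cannot pass there.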
